A study of Mus musculus with 96 samples.

Results

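Of the 42403 genomic regions bound by GATA6 in a course of induced primitive endoderm (PrE) differentiation, 1358 were already strongly occupied by 3 pluripotency transcription factors (PTFs) before GATA6 was induced. These prebound sites were chosen by their ChIP-seq signal in undifferentiated cells, as the regions with at least 5 RPM (reads in the region per 1 M reads of the library) of OCT4, at least 5 RPM of SOX2 and at least 3 RPM of ESRRB. Taken singly, the OCT4 threshold was met by 2338 regions, the SOX2 threshold by 3508 and the ESRRB threshold by 3412. The values before induction therefore chose the sites and are given only as a description. At the prebound sites these medians were 7.84 RPM for OCT4, 10.73 RPM for SOX2 and 5.88 RPM for ESRRB, beside 0.703 RPM, 0.808 RPM and 0.574 RPM over all regions. Per kb of region width they were 6.24, 8.20 and 4.65 RPM, beside 1.34, 1.53 and 1.08 RPM.

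OCT4 (encoded by Pou5f1), SOX2 and ESRRB are transcription factors that maintain the undifferentiated state of embryonic stem (ES) cells, and OCT4 and SOX2 bind side by side to a composite OCT:SOX motif. GATA6 is the zinc-finger factor that directs the inner cell mass towards PrE, the lineage that lines the yolk sac, and SOX17 is an HMG-box factor that acts downstream of it. Enhancers occupied by several PTFs at once lie near many pluripotency genes.

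The cells were KH2 mouse ES cells of the strain C57BL/6 x 129/Sv carrying a doxycycline (Dox)-inducible Gata6 cassette, grown in serum and LIF on feeder cells. Per the study's methods feeders were adsorbed before fixation, the transgene encodes tagged GATA6, and the knock-down was done in a single clone. Samples were taken without Dox and at 8 h, at 16 h and on days 1, 2 and 4 of Dox at 1 µg/mL, beside untreated XEN cells of the strain CD1 (line X10), a stem cell line of the PrE lineage grown without LIF. GATA6, SOX17, OCT4, SOX2 and input chromatin were profiled at all of these, and ESRRB at all but XEN cells. A further arm received Oct4 or control siRNA together with Dox and was collected on day 2, with GATA6 and SOX17 profiled. The table gives 1 value per region and condition in which the authors pooled the libraries, so that no value has a replicate spread, no difference has a test, and a fold is a description of these pooled libraries. A ChIP signal is an average over the culture, in which fewer cells with a bound site and weaker binding per cell cannot be told apart, and separate ChIPs do not show factors on the same molecule.

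The sites were wider than other regions, with a median width of 1350.5 bp (quartiles 995 and 1839 bp) against 524 bp over all regions, and a wider region collects more reads. The main levels are therefore also given per kb of width. Input chromatin at the sites had a median of 1.38 RPM before Dox (1.04 RPM per kb), against 0.448 RPM (0.860 RPM per kb) over all regions. Library depths ran from 5.42 to 69.4 M reads with a median of 15.3 M reads, where they could be derived from the values. The shallowest GATA6 library was the single one before Dox, at 6.12 M reads, where the sites' median GATA6 of 1.31 RPM rests on 8 reads.

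The sequences at the summits of GATA6 signal are shown for sites at the extremes of its course and are not typical of all. The first group holds sites where GATA6 was high at 8 h and low on day 4, named by the protein-coding gene with the nearest transcription start site (TSS). Letters are those of the mm10 plus strand, and capitals mark the best GATA6 and OCT:SOX matches, and in Tle3 the best ESRRB match, that the authors found with FIMO in the region.
Nmur2, chr11:55946783-55946883: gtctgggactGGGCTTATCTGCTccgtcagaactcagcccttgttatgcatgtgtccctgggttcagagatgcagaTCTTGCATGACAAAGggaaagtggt
Plagl1, chr10:13102555-13102747: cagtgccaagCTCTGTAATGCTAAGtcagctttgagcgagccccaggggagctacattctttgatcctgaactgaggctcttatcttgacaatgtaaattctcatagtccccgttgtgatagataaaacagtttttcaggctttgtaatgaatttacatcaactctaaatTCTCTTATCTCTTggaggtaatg
Tle3, chr9:61573942-61574135: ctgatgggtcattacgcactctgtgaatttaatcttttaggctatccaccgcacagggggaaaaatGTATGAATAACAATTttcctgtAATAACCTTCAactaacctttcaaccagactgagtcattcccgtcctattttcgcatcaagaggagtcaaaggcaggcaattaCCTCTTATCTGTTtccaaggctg
Zfp26, chr9:20453715-20453880: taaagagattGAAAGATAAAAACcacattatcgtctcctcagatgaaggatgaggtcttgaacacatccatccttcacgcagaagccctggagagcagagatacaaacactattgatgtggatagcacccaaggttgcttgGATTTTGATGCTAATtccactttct
Trib2, chr12:16136193-16136313: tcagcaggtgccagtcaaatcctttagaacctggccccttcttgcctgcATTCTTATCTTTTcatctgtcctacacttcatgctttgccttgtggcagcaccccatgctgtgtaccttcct
In the Nmur2 window the best OCT:SOX match, which scored 15.8, began 28 bp to the right of the summit and the GATA6 match, which scored 11.7, began 38 bp to its left. In Plagl1, Tle3 and Zfp26 the matches to both factors fell within 1 window of at most 194 bp. In the Trib2 window the GATA6 match covered the summit and the best OCT:SOX match lay outside.

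The second group holds sites where GATA6 was higher on day 4 than at 8 h. Here the capitals mark every GATAA or its reverse complement TTATC, the core of the GATA motif, since the best matches of the authors mostly lay outside these windows of 121 bp.
Tanc1, chr2:59698130-59698250: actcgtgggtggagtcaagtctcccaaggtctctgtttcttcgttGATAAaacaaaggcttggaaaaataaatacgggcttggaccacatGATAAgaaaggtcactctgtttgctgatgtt
Nfat5, chr8:107287010-107287130: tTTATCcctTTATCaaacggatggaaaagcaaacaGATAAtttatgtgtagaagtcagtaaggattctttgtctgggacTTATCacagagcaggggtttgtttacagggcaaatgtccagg
Sirt4, chr5:115490064-115490184: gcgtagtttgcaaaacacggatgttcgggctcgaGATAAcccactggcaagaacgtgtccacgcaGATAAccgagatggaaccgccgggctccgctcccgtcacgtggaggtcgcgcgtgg
Rbpms, chr8:33902421-33902541: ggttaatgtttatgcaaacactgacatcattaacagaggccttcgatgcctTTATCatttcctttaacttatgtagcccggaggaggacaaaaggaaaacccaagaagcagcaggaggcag
The window near Nfat5 held 4 of these cores, those near Tanc1 and Sirt4 2 each, and that near Rbpms 1, while the fifth such site, near Aloxe3, held none and is not shown. The last pair comes from the 6 sites with the strongest GATA6 signal at 8 h. The windows of the others, near Fndc3a, Rhof, Tbx3 and Lamc1, held no best match and are not shown. The pair has the best GATA6 match, and in Gm6993 also the best OCT:SOX match, in capitals.
Gm6993, chr12:31229383-31229662: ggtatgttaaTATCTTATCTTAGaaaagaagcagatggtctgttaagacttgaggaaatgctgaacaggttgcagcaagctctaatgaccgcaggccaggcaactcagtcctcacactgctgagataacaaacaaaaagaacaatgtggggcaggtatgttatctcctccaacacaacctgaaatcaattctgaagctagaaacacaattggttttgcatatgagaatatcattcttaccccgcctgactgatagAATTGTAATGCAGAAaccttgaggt
Calcoco2, chr11:96114186-96114306: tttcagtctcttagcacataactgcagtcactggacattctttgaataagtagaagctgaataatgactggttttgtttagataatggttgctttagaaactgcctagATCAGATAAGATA
In Gm6993 the OCT:SOX match began 34 bp from the summit and the GATA6 match 211 bp from it on the other side.

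GATA6 was strongly recruited to the prebound sites within 8 h. The median went from 1.31 RPM before Dox to 12.62 RPM at 8 h (quartiles 7.51 and 20.11 RPM), and 1343 of the 1358 sites (98.9%) were at least 2-fold higher, against 60.4% of all regions. The rise was not particular to the sites. At 8 h 93.4% of the 7492 other regions with PTF peaks called before induction were at least 2-fold higher. In 841 regions that met the OCT4 and SOX2 thresholds with under 3 RPM of ESRRB this share was 97.5%. All changes are differences of log2(RPM + pseudocount), with the pseudocount at the 5th percentile of each factor's values (0.193 RPM for GATA6), and on this scale the median change was 3.05 at the sites and 1.38 over all regions. Before Dox the GATA6 antibody gave a median log2 ratio to input of -0.06. The GATA6 level at 8 h was 8.46 times that of the median region, and 2.75 times per kb of width (8.98 against 3.27 RPM per kb).

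From 8 h on, GATA6 binding became weaker at most of these sites. The medians after 8 h were 9.47 RPM at 16 h, 6.22 RPM on day 1, 5.27 RPM on day 2 and 3.17 RPM on day 4, and 1.77 RPM in XEN cells. On day 4 1001 sites (73.7%) were at least 2-fold below 8 h, against 34.8% of all regions, and 21 (1.55%) were at least 2-fold above it, against 30.9%. The median log2 change was -1.76, while over all regions it was -0.02. The fall was not particular to the sites. On day 4 70.4% of the 7492 other regions with PTF peaks called before induction were at least 2-fold below 8 h. In 841 regions that met the OCT4 and SOX2 thresholds with under 3 RPM of ESRRB this share was 86.7%. In XEN cells, compared with day 4, 360 sites (26.5%) were at least 2-fold lower and 23 (1.69%) were higher, where the shares over all regions were 11.7% and 14.4%. Of the 5 times after Dox, 8 h had the highest GATA6 value at 1036 of the sites (76.3%) and day 4 at 82 (6.04%), against 32.9% and 37.8% of all regions.

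**Figure D1:**
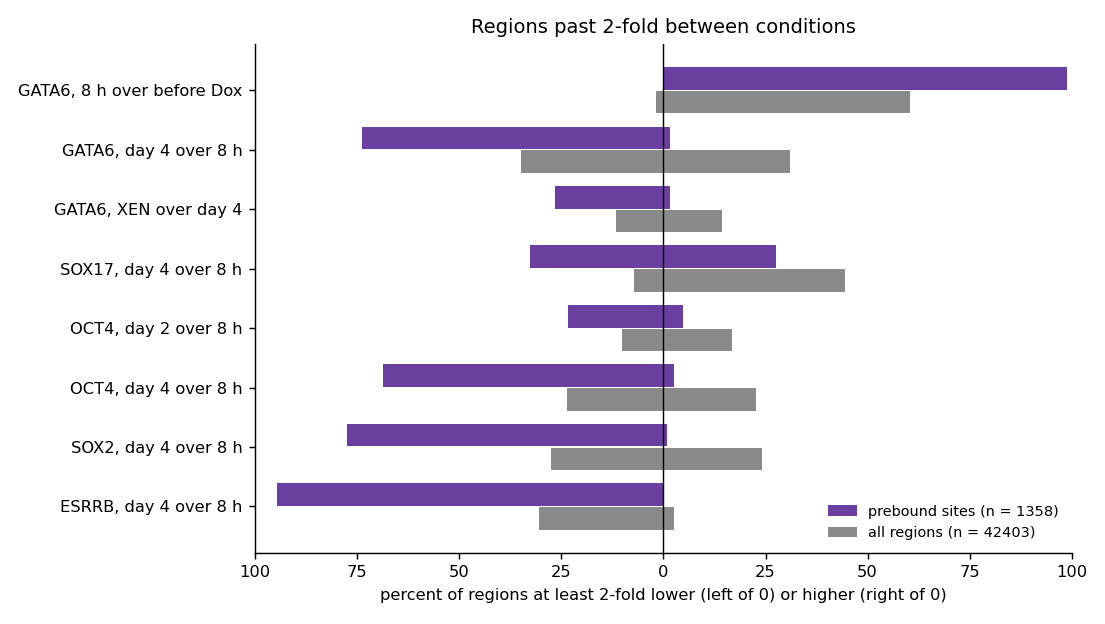
Percent of regions at least 2-fold lower (left of 0) or higher (right of 0) in each comparison (y axis), for the 1358 prebound sites (purple) and all 42403 regions (grey), from 1 pooled value per region and condition. The purple bars reach far to the left for day 4 over 8 h of GATA6 (73.7%), OCT4 (68.6%), SOX2 (77.4%) and ESRRB (94.6%), and hardly to the right.

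The PTFs were lost to different extents. At 8 h the median log2 ratio to input was 2.17 for ESRRB, 2.93 for SOX2 and 2.72 for OCT4, so that ESRRB started lower. On day 2 the ratios were 0.93, 2.38 and 2.41, and on day 4 -0.09, 0.85 and 1.08. ESRRB, an orphan nuclear receptor, went from a median of 6.37 RPM at 8 h to 6.13 RPM at 16 h, 4.09 RPM on day 1, 2.72 RPM on day 2 and 1.09 RPM on day 4, where input was at 1.13 RPM. On day 4 1285 sites (94.6%) were at least 2-fold below 8 h, against 30.3% of all regions, and none was 2-fold higher. ESRRB on day 4 was at least 2-fold above input at 9 of the 1358 sites (0.663%) and at 0.259% of all regions. SOX2 went from 11.10 RPM at 8 h to 6.36 RPM on day 1, 7.66 RPM on day 2 and 2.19 RPM on day 4, with 1051 sites (77.4%) at least 2-fold lower than at 8 h, against 27.6% of all regions. OCT4 was retained at most sites until day 2. Its median was 9.24 RPM at 8 h, 6.28 RPM at 16 h, 7.45 RPM on day 1, 7.58 RPM on day 2 and 2.57 RPM on day 4. On day 2 316 sites (23.3%) were at least 2-fold below 8 h and 65 (4.79%) were above it, against 10.2% and 16.8% of all regions, and OCT4 was still at least 2-fold above input at 1337 sites (98.5%), against 43.9% of all regions. By day 4 931 sites (68.6%) had at least 2-fold less OCT4 than at 8 h, against 23.7% of all regions. Over all regions a 2-fold fall had less room. Their median log2 ratios to input at 8 h were 0.64 for OCT4, 0.82 for SOX2 and 0.50 for ESRRB. In the 841 regions with low ESRRB the day 4 shares were 87.6% for OCT4, 90.4% for SOX2 and 77.4% for ESRRB. In the 7492 other regions with PTF peaks called before induction they were 65.95%, 74.0% and 66.3%. The falls of OCT4 and SOX2 were thus not particular to the sites. The ESRRB shares cannot be compared in this way. The sites were chosen for at least 3 RPM of ESRRB before Dox and the 841 regions for under 3 RPM, so the room for a 2-fold fall was set by the choice. In XEN cells OCT4 at the sites was at the level of input, with medians of 1.07 RPM for both.

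SOX17 followed a mixed course. On day 4 375 sites (27.6%) were at least 2-fold above 8 h and 444 (32.7%) at least 2-fold below it, while over all regions 44.5% were above and 7.32% below. The SOX17 antibody gave signal at these sites before Dox, with a median of 3.86 RPM against 1.38 RPM of input, and 1083 sites (79.7%) were at least 2-fold above input, against 9.85% of all regions. Per kb its Spearman correlation over the 1358 sites was 0.83 with SOX2 and 0.68 with OCT4 before Dox. Both of these chose the sites, so the correlations only describe them, and the part of either factor in the SOX17 signal was not tested. At 8 h, the baseline of the SOX17 changes, the median was 3.17 RPM, below that before Dox. Whether a fall from 8 h is a loss of SOX17 itself was not tested.

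By the authors' clustering of GATA6 dynamics, 715 of the sites (52.7%) were Early and Constant, 639 (47.1%) Transient and 4 Late, whereas over all regions the shares were 28.0%, 38.4% and 33.6%. The clusters were made from GATA6 values, so the GATA6 courses restate them, and the other factors give separate readings. The values that chose the sites are given by class as a description. Median OCT4 before Dox was 7.98 RPM in Early and Constant sites and 7.69 RPM in Transient sites, SOX2 11.44 and 9.98 RPM, and ESRRB 6.23 and 5.59 RPM. The Early and Constant sites were wider, with a median of 1642 bp against 1055 bp, and per kb the same values were 5.09 and 7.59 RPM for OCT4, 6.95 and 9.77 RPM for SOX2, and 3.92 and 5.70 RPM for ESRRB, higher in the Transient sites.

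After Dox the classes parted in OCT4, SOX2 and SOX17. At Early and Constant sites OCT4 was 9.41 RPM at 8 h, 7.17 RPM at 16 h, 10.04 RPM on day 1, 10.45 RPM on day 2 and 5.57 RPM on day 4, and it was higher on day 2 than at 8 h at 393 of 715 sites (55.0%), below the 75.6% of all Early and Constant regions and near the 58.3% of all regions. At Transient sites it was 9.07 RPM at 8 h, 5.37 RPM at 16 h, 4.904 RPM on day 1, 5.15 RPM on day 2 and 1.33 RPM on day 4, and higher on day 2 than at 8 h at 51 of 639 (7.98%), against 32.3% of all Transient regions. SOX2 on day 4 was 4.78 RPM in the former and 1.03 RPM in the latter, where input was 1.58 and 0.791 RPM. SOX17 went from 3.74 RPM at 8 h to 9.62 RPM on day 2 and 7.82 RPM on day 4 at Early and Constant sites. At Transient sites it went from 2.52 RPM at 8 h to 2.21 RPM on day 2 and 0.904 RPM on day 4. The 8 h signal of the SOX17 antibody was not above that before Dox. Its median log2 ratio to input went from 1.36 before Dox to 1.07 at 8 h at Transient sites. At Early and Constant sites it went from 1.34 to 1.13. ESRRB ended low in both, at 1.45 and 0.796 RPM on day 4. Per kb, in the same order of classes, OCT4 was 5.78 and 8.78 RPM at 8 h, 6.40 and 5.02 RPM on day 2 and 3.24 and 1.28 RPM on day 4. On day 4 SOX2 was 3.02 and 0.982 RPM per kb, SOX17 4.78 and 0.811 RPM per kb and ESRRB 0.891 and 0.735 RPM per kb. The log2 change of OCT4 from 8 h to day 4 was -0.82 in the Early and Constant class and -2.74 in the Transient class, and that of SOX17 was 1.00 and -1.25. Among sites narrower than the median site these were -1.37 and -2.92 for OCT4, and 0.62 and -1.33 for SOX17. In all Early and Constant and all Transient regions the changes were 0.34 and -1.04 for OCT4, and 1.42 and -0.31 for SOX17. The classes thus parted over all regions too, and OCT4 fell at the prebound Early and Constant sites but not in the median region of that class. In the authors' peak-based class 680 of 715 Early and Constant sites (95.1%) were SOX17-bound, against 244 of 639 Transient sites (38.2%). Over all regions the classes differed too, at 72.6% and 16.2%.

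**Figure D2:**
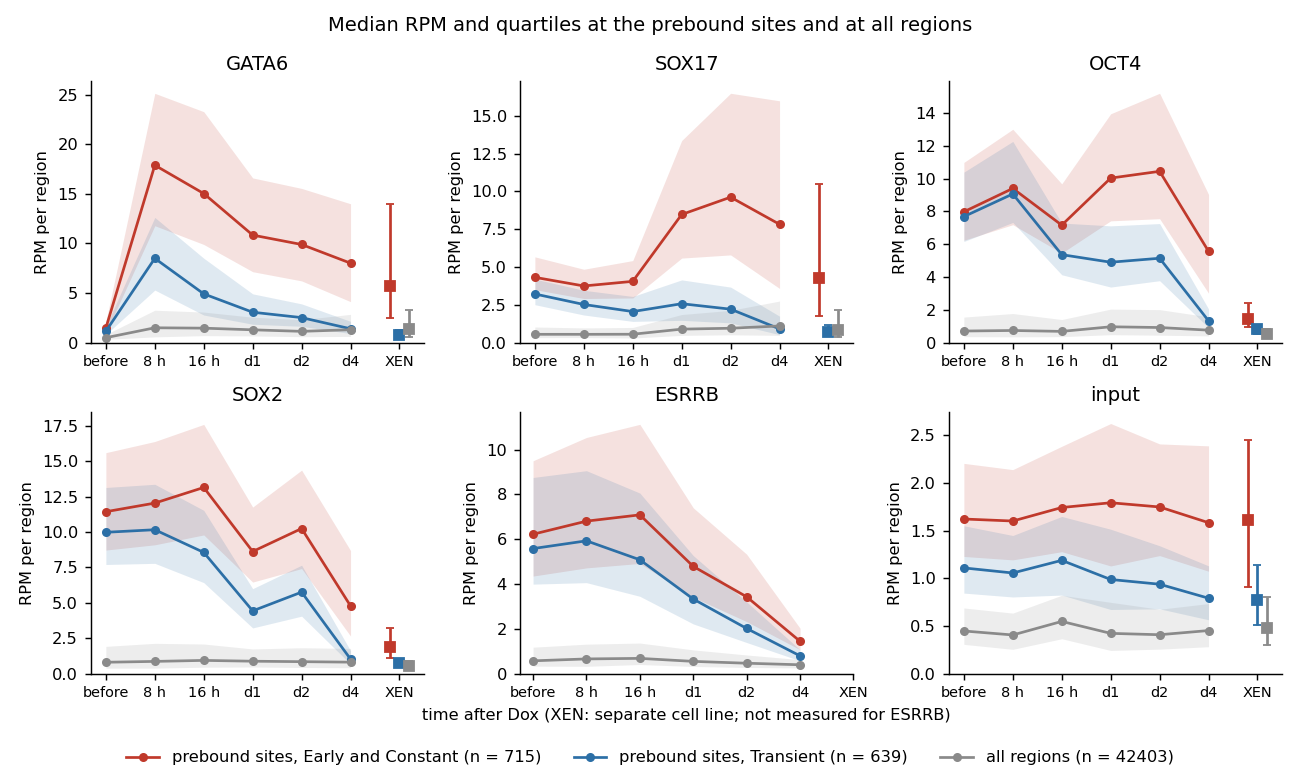
Median RPM per region (y axis; line and points, with the shaded band or error bar from the lower to the upper quartile over regions) of 5 factors and input by time after Dox (x axis; equal steps, not to scale) and in XEN cells (squares), for Early and Constant prebound sites (red, n = 715), Transient prebound sites (blue, n = 639) and all regions (grey, n = 42403). In RPM per region red and blue start close together for OCT4, SOX2 and ESRRB. Per kb of width, not drawn here, the Transient sites start higher in all of these. From day 1 to day 4 red stays above blue for OCT4, SOX2 and SOX17 while ESRRB ends low in both.

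Levels on day 4 went together across sites. The Spearman correlation of GATA6 with SOX17 on day 4 was 0.96 over the 1358 sites (0.94 per kb), that of GATA6 with OCT4 was 0.94 (0.89 per kb), and that of GATA6 on day 4 with GATA6 in XEN cells 0.92 (0.87 per kb). For GATA6 at 8 h the correlation with the level before Dox was 0.24 for OCT4, 0.34 for SOX2 and 0.24 for ESRRB, and per kb 0.03, 0.08 and 0.01, over a range that the thresholds had cut. These describe sites of shared pooled libraries, and sites are not replicates.

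At 5 of the 6 sites with the highest GATA6 at 8 h, GATA6 on day 4 was within 2-fold of it. The site 137367 bp upstream of Fndc3a (chr14:72843659-72848909, intergenic) had 2.61 RPM of GATA6 before Dox, 75.20 RPM at 8 h, 58.70 RPM at 16 h, 39.36 RPM on day 1, 39.66 RPM on day 2, 42.87 RPM on day 4 and 64.54 RPM in XEN cells. The site 2423 bp upstream of Rhof (chr5:123134464-123138762, intergenic) followed with 73.31 RPM at 8 h and 43.34 RPM on day 4, where its input was also high, at 9.55 RPM. The site near Gm6993 (chr12:31227881-31230421), in closed chromatin before Dox by the authors' class, had 62.16 RPM at 8 h and 36.47 RPM on day 4. The exception was the site 2282 bp upstream of Calcoco2 (chr11:96112727-96117621, which reaches to within 1 kb of the TSS), where GATA6 went from 63.50 RPM at 8 h to 17.51 RPM on day 2 and 8.20 RPM on day 4 and OCT4 from 32.21 to 21.84 and 6.61 RPM.

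At the sites with the largest falls GATA6 was between 0.600 and 0.997 RPM on day 4. At the intronic site of Plagl1 (chr10:13102121-13103386), which encodes an imprinted zinc-finger factor, GATA6 was 1.47 RPM before Dox, 26.08 RPM at 8 h, 8.497 RPM at 16 h, 3.39 RPM on day 1, 1.87 RPM on day 2 and 0.827 RPM on day 4, where input was 0.848 RPM. OCT4 at this site was 10.25 RPM at 8 h, 1.56 RPM on day 2 and 0.527 RPM on day 4. The site 201586 bp from Tle3 (chr9:61573479-61574718), a Groucho-type co-repressor gene, went from 24.15 RPM of GATA6 at 8 h to 0.857 RPM on day 4. The sites near Nmur2 (chr11:55946271-55947462), Trib2 (chr12:16135654-16137261) and in an intron of Zfp26 (chr9:20453252-20454152) went from 23.95, 23.35 and 14.77 RPM at 8 h to 0.912, 0.997 and 0.600 RPM on day 4. SOX17 was at or below 0.598 RPM on day 4 at all 5 of these sites.

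The 5 largest rises were of smaller size, on a log2 scale between 1.61 and 1.87, against falls of -4.24 to -4.69. In an intron of Tanc1 (chr2:59697320-59699012) GATA6 was 1.80 RPM before Dox, 6.37 RPM at 8 h, 10.34 RPM at 16 h, 12.47 RPM on day 1, 14.82 RPM on day 2, 23.80 RPM on day 4 and 36.40 RPM in XEN cells. SOX17 at this site was 2.36 RPM at 8 h, 24.88 RPM on day 2 and 38.32 RPM on day 4, and OCT4 6.03, 14.06 and 16.53 RPM, so that all 3 factors were highest on day 4 among these times. The site 6400 bp upstream of Nfat5 (chr8:107286600-107288008), the gene of an osmotic stress factor, went from 7.56 to 26.07 RPM of GATA6 between 8 h and day 4. Near Sirt4 (chr5:115488905-115491267) and in an intron of Rbpms (chr8:33901737-33903206) the day 4 values were 24.16 and 16.08 RPM, from 6.68 and 5.16 RPM at 8 h. The fifth, 1430 bp upstream of Aloxe3 (chr11:69123918-69125731), went from 3.49 to 11.54 RPM and is 1 of the 4 Late sites. The others of that class lie near Ppp1r10, Glud1 and Sgk1, with 4.27, 3.05 and 2.69 RPM at 8 h and 11.32, 6.70 and 2.67 RPM on day 4.

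The highest SOX17 values on day 4 were 63.54 RPM near Kti12 (chr4:108841644-108844018, in an intron of Txndc12), 57.22 RPM near Usp48 (chr4:137589593-137592214), 54.45 RPM in an intron of Arid5b (chr10:68229268-68232863) and 53.04 RPM over an exon of Sall4 (chr2:168761160-168763802). At the first of these SOX17 had been 4.44 RPM at 8 h and 23.14 RPM on day 2, and it was 62.53 RPM in XEN cells. OCT4 on day 2 was highest near Gm6993, at 57.64 RPM, from 38.84 RPM at 8 h. Near Gclm, in an intron of Abca4 (chr3:122145084-122146260), the site with the highest OCT4 before Dox (69.86 RPM), OCT4 was 75.92 RPM at 8 h, 50.68 RPM on day 2, 9.14 RPM on day 4 and 0.7998 RPM in XEN cells. Lrpap1 (chr5:35103090-35105769, at the promoter) and Fndc3a followed with 41.06 and 40.56 RPM of OCT4 on day 2.

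Of a list of 46 pluripotency genes, 32 were the nearest gene of at least 1 prebound site, with 62 sites among the 473 regions nearest to the listed genes. Over the whole set, 1094 of the 12247 genes nearest to a region had a prebound site, and 1358 of the 42403 regions were prebound sites. The 62 sites were split evenly, with 31 Early and Constant and 31 Transient, and 48 of the 62 were at least 2-fold lower in GATA6 on day 4 than at 8 h, 46 in OCT4 and 61 in ESRRB. The shares of all prebound sites were 73.7%, 68.6% and 94.6%, so the sites near these genes are close to the rest, and those of all regions 34.8%, 23.7% and 30.3%. Of 25 PrE genes 6 were nearest to a site. Their 11 sites were among 283 regions nearest to the 25 genes, and 10 of the 11 were Early and Constant. Of these 11, 4 were at least 2-fold lower in GATA6 on day 4 than at 8 h and 1 was higher, and 9 were at least 2-fold higher in SOX17, where the shares over all regions were 34.8%, 30.9% and 44.5%. Median OCT4 at the 11 sites was 8.5 RPM at 8 h and 15.76 RPM on day 4, whereas at the 62 pluripotency sites it was 11.95 and 2.85 RPM. The nearest gene is a label by distance, and whether a site regulates it was not measured.

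Among the pluripotency genes, Tbx3, a T-box factor gene, had 3 of its 4 sites 81639 to 90535 bp upstream. At the strongest (chr5:119585655-119590059) GATA6 was 57.46 RPM at 8 h, 62.57 RPM at 16 h and 36.06 RPM on day 4, and at the next (chr5:119579174-119581740) 52.42, 48.93 and 28.55 RPM. Between them, at chr5:119584062-119585545, GATA6 went from 32.58 RPM at 8 h to 8.53 RPM on day 4 and 2.16 RPM in XEN cells, so that neighboring sites of 1 gene ended far apart. The exonic Sall4 site had 43.46 RPM at 8 h and 34.08 RPM on day 4, and a second Sall4 site upstream 35.41 and 15.19 RPM. Sites near Spry2, a feedback inhibitor of FGF signaling, and Klf5 had 45.70 and 36.60 RPM at 8 h and 17.09 and 21.33 RPM on day 4. On day 4 GATA6 was lower at a site 68017 bp from Klf4 (chr4:55463713-55465226), with 31.77 RPM at 8 h and 5.01 RPM on day 4, and 22001 bp from Bmp4 (chr14:46412000-46413295), with 28.49 and 1.78 RPM.

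Sites near the genes of the PTFs themselves were chosen for description after their values were seen. The site 1959 bp upstream of Pou5f1 (chr17:35503642-35504431) was Transient, with 1.14 RPM of GATA6 before Dox, 9.84 RPM at 8 h, 2.28 RPM on day 4 and 0.470 RPM in XEN cells, while OCT4 there was 9.91 RPM at 8 h, 15.75 RPM on day 2 and 4.26 RPM on day 4. The site 4859 bp upstream of Nanog (chr6:122702448-122703147) had 4.10 RPM of GATA6 at 8 h and 1.95 RPM on day 4. Of 4 sites nearest to Sox2, 3 were Transient, as were 3 of 5 nearest to Esrrb. In an intron of Esrrb 1 of the 2 others (chr12:86479960-86481406) kept GATA6, with 25.88 RPM at 8 h and 18.94 RPM on day 4. Jarid2, a Polycomb cofactor gene, had 8 sites, the most of any gene, of which 4 were Early and Constant and 4 Transient.

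Of the PrE genes, Lamc1, which encodes a laminin chain of the basement membrane, had 4 sites, all Early and Constant. At chr1:153376278-153378779 GATA6 was 1.31 RPM before Dox, 54.95 RPM at 8 h, 33.59 RPM on day 4 and 35.78 RPM in XEN cells, and at chr1:153320031-153321993, in an intron, it was 35.59 RPM at 8 h and 17.21 RPM on day 4. The site 5625 bp upstream of Pdgfra (chr5:75145915-75148017), a receptor gene that marks PrE, was in closed chromatin before Dox by the authors' class and had 29.20 RPM of GATA6 at 8 h, 8.32 RPM on day 4 and 5.39 RPM in XEN cells. OCT4 there was 12.61 RPM at 8 h, 25.82 RPM on day 2 and 9.72 RPM on day 4. At the promoter of Serpinh1, a collagen chaperone gene, GATA6 was 21.37 RPM at 8 h, 44.5 RPM on day 4 and 65.39 RPM in XEN cells.

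By the authors' chromatin classes, 781 (57.5%) were active enhancers in ES cells, against 11.2% of all regions, 211 (15.5%) primed enhancers, against 16.9%, and 200 (14.7%) promoters, against 6.88%. In the 841 regions that met the OCT4 and SOX2 thresholds with under 3 RPM of ESRRB, 35.4% were active and 35.9% primed enhancers, 31.3% were accessible and 8.32% closed. Of the sites, before Dox, 500 (36.8%) were accessible and 788 (58.0%) moderately so, and 70 (5.15%) were closed, against 61.3% of all regions. Among Transient sites 325 of 639 (50.9%) were accessible and 4 closed, and among Early and Constant sites 173 of 715 (24.2%) were accessible and 66 closed. By the gene annotation 692 (51.0%) were intergenic, 448 (33.0%) intronic, 117 (8.62%) at a promoter and 101 (7.44%) exonic, with shares over all regions of 45.3%, 40.5%, 6.53% and 7.66%. The authors' PTF class, made from peak calls, put 1349 of the sites among those bound before induction, 7 among those gained later and 2 among those without a PTF.

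A strong or intermediate OCT:SOX motif was found in 821 sites (60.5%) against 20.3% of all regions, and a strong or intermediate ESRRB motif in 808 (59.5%) against 22.5%. In the 841 regions with low ESRRB the OCT:SOX share was higher, at 72.8%, with 4.23 matches per kb, and the ESRRB share 17.6%. For GATA6 the shares were 63.3% and 59.8%. Wider regions hold more matches by length alone. Per kb the sites held 2.93 OCT:SOX matches against 2.64 over all regions, 1.02 ESRRB matches against 0.798, and 3.04 GATA6 matches against 4.05. At 20 sites no OCT:SOX match was found, and GATA6 there was at least 2-fold higher at 8 h than before Dox at all 20. The share was 98.9% of all prebound sites and 60.4% of all regions, so this count says little about the motif. The best GATA6 match scored a median of 11.3 in Early and Constant sites and 9.36 in Transient sites, and the best OCT:SOX match 10.4 and 11.8.

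The position of the GATA6 summit differed between the classes. In Transient sites the summit lay a median of 72 bp from the best OCT:SOX match and 222.5 bp from the best GATA6 match. In Early and Constant sites it lay 333.5 bp from the OCT:SOX match and 195 bp from the GATA6 match. The Early and Constant sites are wider, and among sites narrower than the median site the distances were 57 and 188 bp in the Transient class and 140 and 132 bp in the Early and Constant class. Where both matches were present, the OCT:SOX match was the nearer one in 336 of 548 Transient sites (61.3%), in 298 of 684 Early and Constant sites (43.6%) and in 35.7% of all regions. It was nearer in 42.2% of all Transient and 29.8% of all Early and Constant regions, so the classes differed beyond the prebound sites. The median distance to the OCT:SOX match was 85 bp in all Transient and 184 bp in all Early and Constant regions. To the GATA6 match it was 51 and 50 bp. Within 50 bp of the summit lay the best OCT:SOX match of 41.7% of Transient sites that had one and the best GATA6 match of 21.1%, beside 26.7% and 50.0% over all regions. The 841 regions with low ESRRB were like the Transient sites. There the OCT:SOX match was the nearer one in 62.1%, and 46.6% of OCT:SOX and 27.6% of GATA6 best matches lay within 50 bp.

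**Figure D3:**
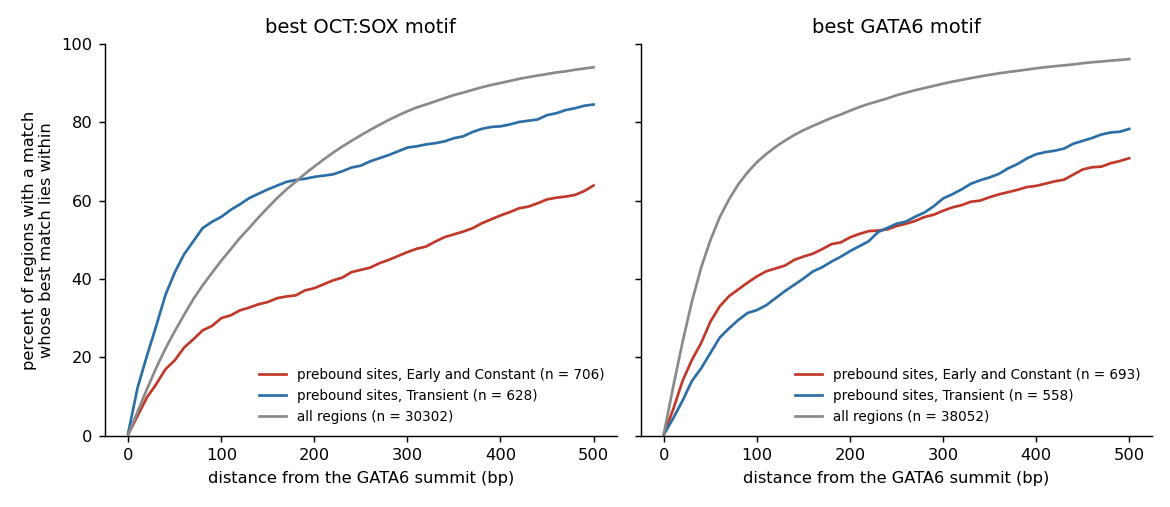
Percent of regions with a match (y axis) whose best OCT:SOX motif (left) or best GATA6 motif (right) lies within a given distance of the GATA6 summit (x axis, bp), for Early and Constant prebound sites (red), Transient prebound sites (blue) and all regions (grey), which are narrower. On the left blue lies above red throughout, with 41.7% of Transient and 19.3% of Early and Constant sites within 50 bp, and on the right both lie below grey.

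Windows of 121 bp centered on the summit, were of equal length in every region. The letters GATAA, on either strand, were present in 245 of 616 Transient sites (39.8%) and 450 of 692 Early and Constant sites (65.0%), against 65.5% of all regions. The octamer-like letters ATGCNAAT were present in 12.3% of Transient sites, 7.80% of Early and Constant sites and 4.06% of all regions. In all Transient regions GATAA was present in 60.4% and ATGCNAAT in 6.89%, and in all Early and Constant regions in 76.4% and 3.79%. In the regions with low ESRRB that met the OCT4 and SOX2 thresholds, GATAA was present in 41.7% and ATGCNAAT in 15.3%. In the other regions with PTF peaks called before induction these shares were 50.9% and 9.43%. The ESRRB half-site letters AAGGTCA were present in 7.70% of the sites and 4.18% of all regions. The GC content of the windows had a median of 45.5% in both classes. A window without such letters says nothing on whether a factor was bound there.

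The sets of regions most like these held a larger share of Transient sites. In 841 regions that met the OCT4 and SOX2 thresholds but had under 3 RPM of ESRRB, with a median width of 887 bp, 257 (30.6%) were Early and Constant and 582 (69.2%) Transient. In the 7492 other regions with PTF peaks called before induction these shares were 34.4% and 62.4%, at a median width of 740 bp. Per kb, GATA6 at 8 h was 7.29 RPM in the former and 5.69 RPM in the latter, against 8.98 RPM at the prebound sites, and on day 4 it was 1.36 and 1.57 RPM against 2.34 RPM. OCT4 on day 2 was at least 2-fold below 8 h at 52.1% of the first set, 29.6% of the second and 23.3% of the prebound sites. AAGGTCA was present at 1 of 811 summit windows in the set with low ESRRB, which that set's definition bears on.

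With Oct4 siRNA, GATA6 on day 2 was lower at many of the sites. The median was 5.92 RPM with control siRNA and 4.38 RPM with Oct4 siRNA, and 526 sites (38.7%) were lower by at least 0.5 on the log2 scale and 41 (3.02%) higher, where over all regions 21.2% were lower and 21.9% higher. Regions most like the sites had similar shares. In the 7492 other regions with PTF peaks called before induction 35.1% were lower and 7.21% higher. In the 841 regions with low ESRRB 46.7% were lower and 3.45% higher. The median log2 difference was -0.35 at the sites and 0.00 over all regions. It was -0.53 at Transient sites and -0.21 at Early and Constant sites, beside -0.31 in all Transient and -0.06 in all Early and Constant regions. By OCT:SOX motif it was -0.49 at 395 sites with a strong match, -0.36 at 426 with an intermediate one and -0.26 at 517 with a weak one. By OCT4 on day 2 the order ran the other way, at -0.40 in the 453 sites with the lowest OCT4, -0.39 in the middle 452 and -0.27 in the 453 with the highest. Transient sites had little GATA6 left on day 2, with medians of 2.07 RPM with control siRNA and 1.29 RPM with Oct4 siRNA.

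SOX17 in the same cells was higher with Oct4 siRNA across the table, with a median log2 difference of 0.52 over all regions, and 0.35 at the sites, which is -0.17 relative to all regions. Unshifted, 496 sites (36.5%) were higher by at least 0.5 and 70 (5.15%) lower, against 51.4% and 3.95% of all regions. The direction at the sites thus turns with the scaling.

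**Figure D4:**
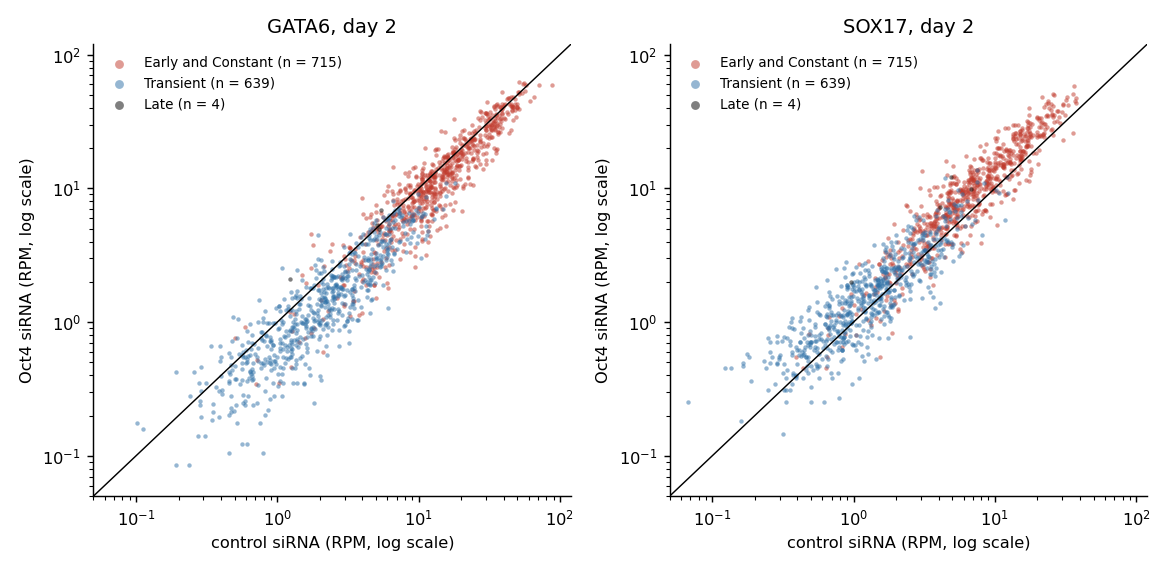
GATA6 (left) and SOX17 (right) RPM on day 2 with control siRNA (x axis) and Oct4 siRNA (y axis), both on log scales, at each of the 1358 prebound sites, with Early and Constant sites in red, Transient in blue and Late in black, and the diagonal as a line. GATA6 points lie mostly below the diagonal, with 526 lower by at least 0.5 on the log2 scale, and SOX17 points, before the shift of 0.52 over all regions is taken off, mostly above it.

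Of the 1203 sites with at least 1 RPM of GATA6 under control siRNA, the lowest ratio was near Pik3c3, an intergenic site at 1.81 RPM with control and 0.249 RPM with Oct4 siRNA. It was followed by sites 849633 bp from Gsdmc (chr15:62958238-62959673), at 6.06 and 1.28 RPM, and 9371 bp upstream of 2900011O08Rik (chr16:13976558-13977586), at 2.04 and 0.367 RPM. All 3 were Transient. The highest ratios were over an exon of Kank2 near Spc24 (chr9:21767873-21768870), at 1.73 and 4.53 RPM, at the promoter of the Polycomb gene Phc1 (chr6:122340358-122341778), at 1.94 and 4.48 RPM, and in an intron of Tmem51 (chr4:142070595-142072258), at 6.54 and 14.46 RPM. Among strong sites, that near Fndc3a was little different, at 57.17 and 58.75 RPM, as was the strongest Tbx3 site, at 51.04 and 50.71 RPM. The site near Gm6993, with the highest GATA6 of all sites under control siRNA, was lower with Oct4 siRNA, at 87.74 and 58.89 RPM.

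The thresholds cut through a continuous range. Just inside the OCT4 threshold were sites near Qk, Btg1 and Cic, at 5.005, 5.008 and 5.008 RPM, and just outside were regions near Zfp36l1, Lama1 and Rit2, at 4.995, 4.994 and 4.992 RPM, of which the Lama1 region had 12.51 RPM of GATA6 at 8 h and 18.86 RPM on day 4. For SOX2 the sites near Fzd7, Cemip and Ctnnd1 were at 5.02, 5.03 and 5.06 RPM and the regions near Rapgef1, Adgrl2 and Glis3 at 4.98, 4.98 and 4.96 RPM. For ESRRB those near Ddx58, Il7 and Htra1 were at 3.002, 3.004 and 3.005 RPM and those near Lmnb1, Akr1d1 and Fbxl4 at 2.994, 2.993 and 2.987 RPM.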

How the data were processed

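ChIP-seq of GATA6, SOX17, OCT4, SOX2 and ESRRB and input chromatin came from 96 libraries of 47 conditions, of which 45 have a column of values. The authors trimmed reads with cutadapt, used bowtie2 for alignment to mm10, dropped reads that mapped poorly or, by their UMIs, were duplicates, called peaks with MACS2 and counted reads on each GATA6 region with bamsignals. The values deposited by the authors are RPM, with the libraries of a condition pooled into 1 value. For each region the authors also deposited the FIMO score of the best motif match, the number of matches and classes of GATA6 dynamics, SOX17, PTF, accessibility and histone state. Values in 14 columns of ATAC and histone libraries, which match no labelled sample, were left out, as was the authors' class of GATA6 change under Oct4 siRNA, which rests on their own differential test. Input of the siRNA cells was not used here.

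The prebound sites and the gene lists were chosen with earlier results of these data known. Changes were differences of log2(RPM + pseudocount), the pseudocount being the 5th percentile of the assay's values, and a call was at least 2-fold, or 0.5 on the log2 scale for siRNA. No test was possible with 1 pooled value per condition. Depths were derived from the steps of low values in 40 of the 45 columns, taking a pooled value as the mean of its libraries. In 4 columns 100% of low values were whole multiples of 1 step, within 0.001 of a step (0.02 for columns with 2 steps), and a count test could not be run on a single value per condition. No region is listed at 0, and whether a read was added or such regions were left out is not given in the sources used here. Labels give 3 libraries, but the steps 2, for day 4 of GATA6 and of SOX2 and for XEN input. ESRRB at 8 h, from which its changes are taken, and SOX17 at 16 h have 2 labelled libraries but 1 step. Values as low as the pseudocount come from few reads.

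Named sites were those with the 6 highest GATA6 values at 8 h, the 5 largest rises and 5 largest falls from 8 h to day 4, the 4 highest in SOX17 on day 4, the 4 highest in OCT4 on day 2, the 3 highest and 3 lowest siRNA ratios, and up to 12 near listed genes by GATA6 at 8 h. Genes are from GENCODE M21, with a promoter within 1 kb of a protein-coding TSS, and sequences from the RefSeq copy of GRCm38.p6, the assembly of mm10, leaving out chromosome 18. Coordinates of regions are as deposited, and motif coordinates were checked as 1-based against the genome. Calculations used Python 3.11.15, numpy 2.4.6, pandas 2.3.3, scipy 1.17.1 and pysam 0.24.0. The 2-fold calls were tested on simulated reads with known folds, at equal depth and without spread between libraries. This checked the calculation only, not how reliable the calls are in these libraries, and the siRNA calls were not simulated.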

Additional observations from a re-analysis of the deposited data

How the results depend on the processing

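Replicates share a column, so none could be left out, and no paired analysis was possible because no replicate has a value of its own. With all thresholds multiplied by 0.8 or 1.5 there were 2094 or 528 sites, and every median change and share of calls stayed within 1.5 times. The cause of the changes below was not tested. Subtracting input moved the median log2 change of GATA6 from before Dox to 8 h to 5.29, of GATA6 from day 4 to XEN cells to -0.86 and of ESRRB from 8 h to day 4 to -4.54, and put 45.4% of sites 2-fold lower in GATA6 in XEN cells. A pseudocount 10 times larger gave -0.26 and 5.45% for GATA6 in XEN cells, -0.18 for SOX17 on day 4, 15.4% lower for OCT4 on day 2, -1.54 for ESRRB, -0.22 and 20.8% for GATA6 and 0.20 and 20.0% for SOX17 under Oct4 siRNA. Relative to the median of all regions, GATA6 at 8 h changed by 1.67, SOX17 on day 4 by -1.06 with 15.5% higher, and SOX17 under Oct4 siRNA by -0.17 with 6.19% higher, which turns its direction. The mean over sites gave -0.0388 for SOX17 on day 4. At 1.5-fold, or 1 on the log2 scale for siRNA, the calls were 47.6% for GATA6 in XEN cells, 39.3% for OCT4 on day 2, and 12.1% for GATA6 and 6.70% for SOX17 under Oct4 siRNA. Per kb the ratio of GATA6 at 8 h to all regions was 2.75. Strong OCT:SOX motifs alone were in 29.1% of sites. With 1 site per 10 kb, or with sites over 1 kb from every TSS alone, no value moved by over 1.5 times. The results by class among narrow sites and minus input were chosen after seeing the data, and kept their directions. There the SOX17 change of Transient sites was -1.97 minus input.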
